A study of Mus musculus with 6 samples.

Results

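Genes of 3 families of sugar-binding proteins were followed in breast tumors of BALB/c mice: the C-type lectins, the Siglecs and the galectins. The members were all rows of the deposited gene table whose symbol begins with Clec, Siglec, Cd209 or Lgals, which gave 50 of 16763 genes: 35 C-type lectins (7 of them Cd209 genes), 5 Siglecs and 10 galectin symbols. All tumors came from 4T1, a mouse mammary carcinoma cell line derived from BALB/c, placed in mice labelled male. The model group (3 libraries, here model tumors) carried such tumors and no treatment is labelled for it. The DMDD liposome group (3 libraries, here treated tumors) received DMDD, a compound the labels name only by this abbreviation, in liposomes, which are lipid vesicles. The sources used here give neither dose, duration nor age, and do not tie libraries to separate animals. The p-values therefore measure the spread between these libraries, which may be technical.

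C-type lectins are receptors and secreted proteins built around a fold that often binds sugars in a calcium-dependent way, and many of them sit on macrophages, dendritic cells and neutrophils, where they sense microbes and dying cells. Activating members signal through an ITAM, a tyrosine motif that recruits the kinase Syk and is carried by the adaptors Fcer1g or Tyrobp or, as a single-tyrosine hemITAM, by the receptor itself, while inhibitory members carry an ITIM that recruits phosphatases. Siglecs read sialic acid on cell surfaces and most of them inhibit through ITIMs. Galectins are soluble lectins that bind galactose-containing glycans and are made by tumor cells as well as by immune and stromal cells. In bulk tumor RNA, fewer cells of a type and less RNA per cell cannot be told apart.

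The libraries held 13037500 to 15616840 counts, and 3 counts stood for 0.193 to 0.230 CPM, the unit of counts scaled by library size (with TMM factors). The epithelial markers of the tumor cells were abundant in every library, with a summed level of 3590 to 6519 CPM in model tumors and 3465 to 4062 CPM in treated tumors. Several libraries stood apart. Model replicate 2 held 234 CPM over 9 skin keratinocyte genes against 8.83 to 22.5 CPM elsewhere, DMDD liposome replicates 1 and 3 held 113 and 247 CPM over 7 skeletal muscle genes against 10.9 to 32.6 CPM elsewhere, and mast cell and basophil genes summed to 95.2 and 102 CPM in model replicates 2 and 3 against 24.4 to 38.1 CPM in the others, model replicate 1 included.

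No lectin gene passed the test over all genes. Of the 50 members, 27 had enough reads for the edgeR quasi-likelihood test, and 0 of these 27 were called after Benjamini-Hochberg adjustment over 12891 genes (background 0.0% of genes called), with a smallest adjusted p of 0.626. DESeq2 on the same counts called 0 of the 50 members (background 0.408%), and the authors' deposited table called 0 of them (background 0.346%). At an edgeR unadjusted p under 0.05 there were 7 of the 27 tested members, 4 higher and 3 lower in DMDD liposome, where the background over all tested genes was 7.65% (4.34% higher and 3.31% lower). Groups without overlap were found for 5 of the 27 (background 12.9%): Clec12a, Clec9a, Clec4n and Clec1a were higher in all DMDD liposome libraries and Lgals3 was lower. The log2 fold change was above 0 for 21 of the 27 (background 51.2%), with a median of 0.21 beside 0.01 over all tested genes. With no count filter it was above 0 for 27 of all 50, and the median over the 27 tested members was 0.067 without DMDD liposome replicate 2. Clec9a had 8 counts in model replicate 3 and Lgals4 had 9 in model replicate 2, under the minimum count of 10. Both therefore passed the count filter only with libraries of the group where they are high. Their values, among the 21 above 0, are no support for a difference, and neither is the separation of the groups of Clec9a. By family, 14 of the 16 tested C-type lectins were above 0 (median 0.34), as were both tested Siglecs (median 0.49, and 0.18 without model replicate 3), while the galectins divided into 5 above and 4 below (median 0.00), with Lgals8, one of the 5, at -0.0020 under DESeq2 size factors. Macrophage and monocyte markers, which mark the cells that carry many of these receptors, lay above 0 for 13 of 15 tested genes, with a summed level of 1824 to 3236 CPM in model tumors and 3400 to 4348 CPM in treated tumors. Their centred mean, the mean log2 CPM of a list's tested genes after each gene was centred on its 6 libraries, was -0.56 to 0.04 in model tumors and 0.18 to 0.30 in treated tumors. Among these markers only Lyz2 had groups without overlap (6.67%, background 12.9%). Lyz2 alone held 331 to 1016 CPM of the sum in model tumors and 1107 to 1733 CPM in treated tumors. The part of macrophages and monocytes in the lectin values was not tested.

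**Figure D1:**
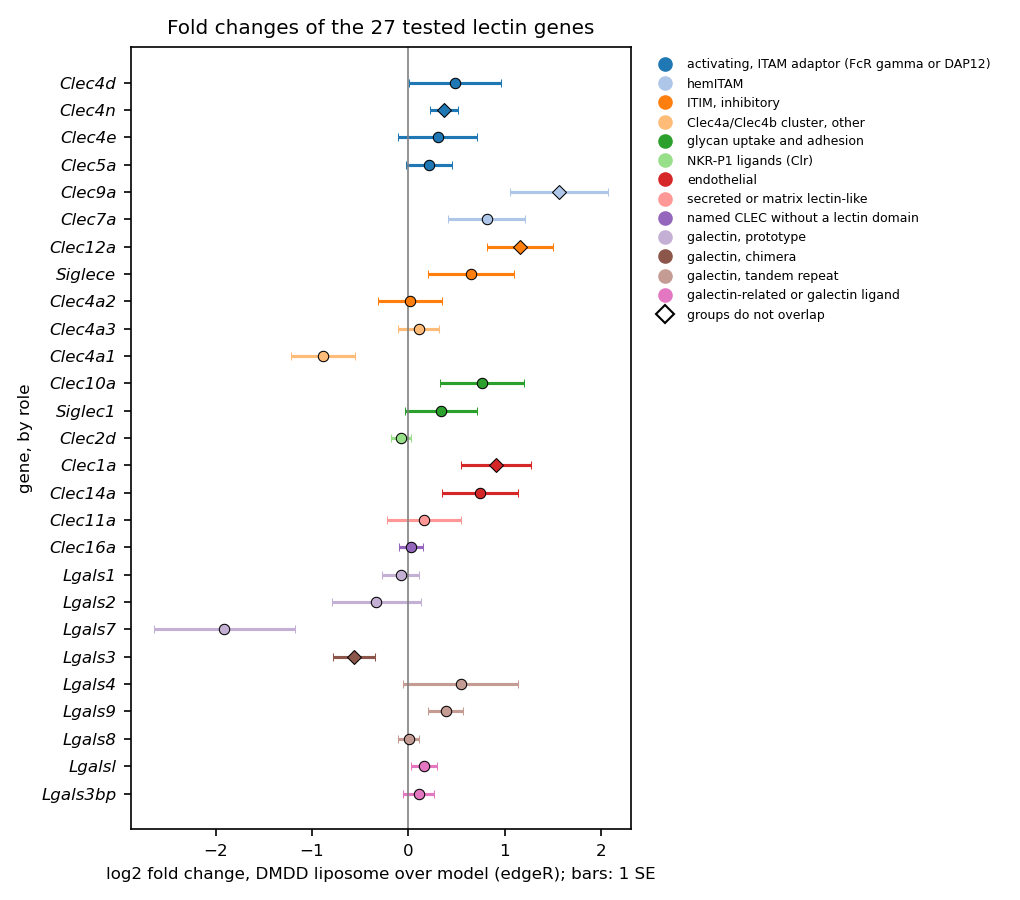
Log2 fold changes (DMDD liposome over model, edgeR) of the 27 tested lectin genes with bars of 1 SE, ordered and coloured by role; diamonds mark the 5 genes whose groups do not overlap. Clec9a at 1.56 and Clec12a at 1.16 lie farthest to the right, and Lgals7 at -1.91 farthest to the left with the widest bar.

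The level of the galectins was far above that of the other families. In FPKM, which scales counts by library depth and gene length, Lgals1 measured 3102 ± 712 in model and 2968 ± 291 in treated tumors (SD, n = 3 each) and made up 86.4% of the summed mean FPKM of its family. Lgals1 encodes a prototype galectin, with 1 sugar-binding domain that pairs into dimers. Next in level were Lgals3, at 202 ± 32.1 FPKM in model, and Lgals3bp, at 124 ± 3.16 FPKM. Among the C-type lectins the highest were Clec4n at 39.7 ± 6.69, Clec2d at 32.1 ± 1.54 and Clec7a at 13.8 ± 1.69 FPKM in model. The Siglecs were led by Siglec1, at 5.69 ± 2.58 FPKM in model, with Siglece at 2.06 ± 1.08 and Siglech at 0.397 ± 0.307.

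**Figure D2:**
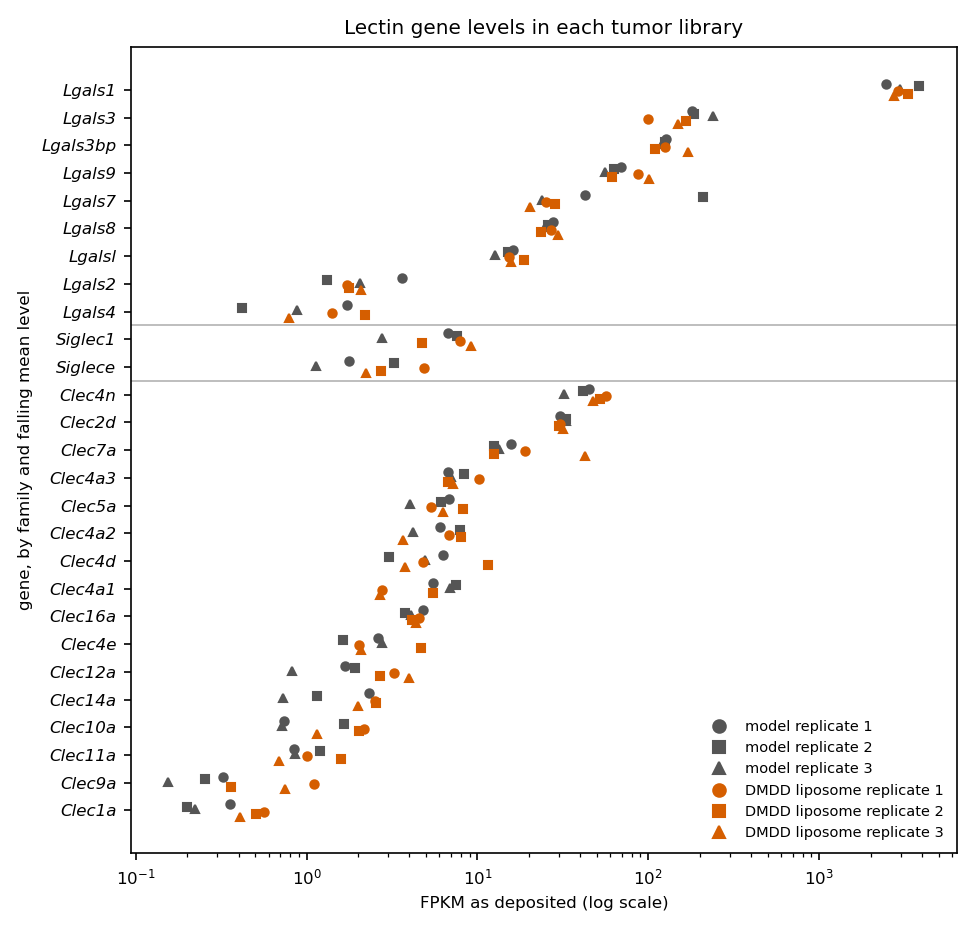
Deposited FPKM (log axis) of the 27 tested lectin genes in each of the 6 libraries, with model in grey and DMDD liposome in orange. Lgals1 lies between 2457 and 3866 FPKM in every library, while Clec1a and Clec9a lie near or below 1 FPKM.

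Of the activating receptors with an ITAM adaptor, Clec4n had the highest level. It encodes Dectin-2, a receptor for fungal mannans that signals through Fcer1g. Clec4n measured 56.1, 51.5 and 41.0 CPM in model tumors (replicates 1, 2 and 3, the order used throughout) and 68.0, 65.4 and 58.5 CPM in treated tumors. Every DMDD liposome library was thus above every model library, though the gap between the nearest libraries was small. It had a log2 fold change of 0.37 ± 0.14 (SE), with an edgeR adjusted p of 0.629. Clec5a, which pairs with Tyrobp, stood at 0.21 ± 0.24, from 21.8 ± 5.36 CPM in model tumors to 25.2 ± 6.12 CPM in treated tumors, and at 0.0012 without DMDD liposome replicate 2.

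Clec4d and Clec4e, neighbouring genes for receptors of mycobacterial glycolipids (MCL and Mincle), had the same highest and lowest libraries. Clec4d measured 8.35, 4.00 and 6.69 CPM in model tumors and 6.23, 15.5 and 4.97 CPM in treated tumors. Clec4e measured 6.59, 4.12 and 7.15 CPM in model tumors and 4.95, 11.9 and 5.18 CPM in treated tumors. Both were highest in DMDD liposome replicate 2 and lowest in model replicate 2, and the groups overlapped. The log2 fold changes of 0.49 ± 0.48 for Clec4d and 0.30 ± 0.41 for Clec4e turned to -0.18 and -0.24 without DMDD liposome replicate 2. Of 7 tested neutrophil markers 2 were above 0 and 5 below, and their centred mean in that library, 0.18, was at the level of the model tumors (0.17 to 0.22) and above the other treated libraries (-0.36 and -0.41). Single genes of the marker lists had their highest level there. Mmp9 had 602 CPM against 202 to 416 CPM elsewhere, and Pf4 had 85.8 CPM against 11.2 to 34.9 CPM. S100a8, S100a9, Csf3r, Cxcr2 and Retnlg, of the neutrophil list, were highest in a model library. Ly6g and Mmp8 were highest in DMDD liposome replicate 3. The platelet gene Itga2b was at its lowest in DMDD liposome replicate 2 (2.49 CPM). Gp9 had 0 counts there, as in model replicate 2 and DMDD liposome replicate 3. The part of these cells was not tested.

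A run of 6 neighbouring C-type lectin genes, in the RefSeq order Clec12a, Clec12b, Clec1b, Clec9a, Clec1a and Clec7a with no other coding gene between them, held several of the larger differences. Its 4 tested genes all had log2 fold changes above 0, from 0.81 to 1.56, while Clec12b and Clec1b had at most 2 counts in any library. Clec12a encodes an inhibitory ITIM receptor of myeloid cells that binds uric acid crystals from dead cells. It measured 4.21, 4.77 and 2.10 CPM in model tumors and 7.93, 6.87 and 9.94 CPM in treated tumors. The groups did not overlap, and the log2 fold change of 1.16 ± 0.34 (2.23-fold) kept to between 0.86 and 1.38 when any 1 library was left out. Its edgeR unadjusted p of 0.0107 was the smallest of any member, and its adjusted p was 0.626.

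Clec9a encodes DNGR-1, with which cross-presenting dendritic cells detect actin filaments exposed by dying cells. Its counts were 14, 13 and 8 in model tumors against 50, 16 and 36 in treated tumors, or 1.07, 0.838 and 0.525 CPM against 3.54, 1.21 and 2.45 CPM. DMDD liposome replicate 2 lay only just above model replicate 1. The 8 counts of model replicate 3 were under the minimum count of 10. Clec9a thus passed the count filter only with libraries of the group where it is high, and its value is no support for a difference. Clec9a had a log2 fold change of 1.56 ± 0.51 (edgeR adjusted p = 0.626), and of 1.18 without DMDD liposome replicate 1. Xcr1, a chemokine receptor of the same dendritic cells, was lowest in DMDD liposome replicate 2, the lowest treated library for Clec9a (0.377 CPM, against 3.33 and 2.86 CPM in DMDD liposome replicates 1 and 3), and 0.773 to 2.07 CPM in model tumors. As a list, 4 of 8 conventional dendritic cell markers were above 0 and 4 below, and none of the 8 was at 0. Their centred mean was -0.20, -0.07 and 0.19 in model tumors and 0.22, -0.37 and 0.23 in treated tumors, so that DMDD liposome replicate 2 was the lowest treated library here too. Their summed level, 315 to 421 CPM in model tumors and 337 to 354 CPM in treated tumors, was mostly Cd24a (232 to 331 CPM). The part of dendritic cells in the value of Clec9a was not tested.

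Clec7a, the gene of the beta-glucan receptor Dectin-1, rested on 1 library. It measured 35.8, 28.4 and 31.0 CPM in model tumors and 42.1, 28.9 and 95.9 CPM in treated tumors. DMDD liposome replicate 3 was far above the other libraries, and DMDD liposome replicate 2 lay within the model range. The log2 fold change of 0.81 ± 0.40 (edgeR adjusted p = 0.666) became 0.16 without DMDD liposome replicate 3.

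**Figure D3:**
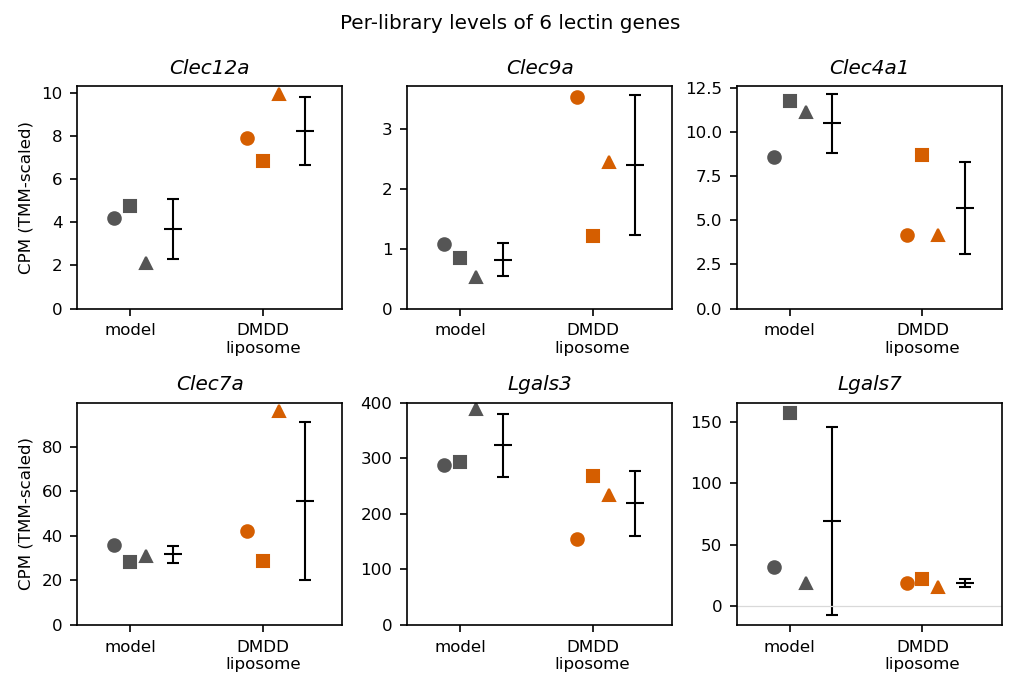
Levels in CPM of Clec12a, Clec9a, Clec4a1, Clec7a, Lgals3 and Lgals7 in each library (circle, square and triangle for replicates 1, 2 and 3), with the mean and 1 SD beside each group. The groups are separate for Clec12a, Clec9a and Lgals3, while DMDD liposome replicate 3 sets Clec7a (95.9 CPM) and model replicate 2 sets Lgals7 (157 CPM).

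The upstream sequences of Clec12a, Clec9a and Clec7a are shown because these genes lie in 1 run and had log2 fold changes of 1 sign. That sign was shared by 14 of the 16 tested C-type lectins, and Clec1a, the other tested gene of the run, is not shown. The sequence of Clec4a1, whose log2 fold change had the other sign, is shown beside them. Each is the 250 bases before the RefSeq start site in build GRCm38.p6, 5′ to 3′ on the gene's strand, and capitals mark GAGGAA on either strand, the purine-rich core that ETS factors such as the myeloid factor PU.1 can bind. Clec12a lies at chr6:129349994-129350243, plus strand, Clec9a at chr6:129408612-129408861, plus strand, Clec7a (the first of 2 listed starts) at chr6:129472780-129473029, minus strand, and Clec4a1 at chr6:122921598-122921847, plus strand.
Clec12a: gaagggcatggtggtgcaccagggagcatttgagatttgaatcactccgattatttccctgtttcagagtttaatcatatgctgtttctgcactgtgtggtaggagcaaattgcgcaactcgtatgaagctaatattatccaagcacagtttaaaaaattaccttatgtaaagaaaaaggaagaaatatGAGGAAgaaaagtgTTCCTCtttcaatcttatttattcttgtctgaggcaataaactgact
Clec9a: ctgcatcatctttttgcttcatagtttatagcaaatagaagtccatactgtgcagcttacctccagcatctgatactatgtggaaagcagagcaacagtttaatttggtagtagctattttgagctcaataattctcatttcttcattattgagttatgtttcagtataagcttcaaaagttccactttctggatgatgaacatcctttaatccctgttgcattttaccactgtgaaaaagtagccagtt
Clec7a: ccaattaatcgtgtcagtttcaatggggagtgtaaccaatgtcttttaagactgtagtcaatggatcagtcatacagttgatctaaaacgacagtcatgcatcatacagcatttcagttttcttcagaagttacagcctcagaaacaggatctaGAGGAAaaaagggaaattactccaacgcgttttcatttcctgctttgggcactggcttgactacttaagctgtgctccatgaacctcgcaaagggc
Clec4a1: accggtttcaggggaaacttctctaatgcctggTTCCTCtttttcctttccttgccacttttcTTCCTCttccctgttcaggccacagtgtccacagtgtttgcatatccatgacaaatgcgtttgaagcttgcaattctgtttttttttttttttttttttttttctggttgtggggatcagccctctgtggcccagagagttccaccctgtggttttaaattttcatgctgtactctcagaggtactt
Clec12a held 2 matches, beginning 61 and 47 bases before the start and on opposite strands. Clec7a held 1 match, beginning 96 bases before it, and Clec4a1 held 2, both on the minus strand of the gene. In the Clec9a window these letters were not found. Of the 46 listed promoters of 42 members, 20 (43.5%) held GAGGAA, against 23.3% of all 32851 RefSeq promoters of this length. The 20 include both listed starts of Clec7a, which hold the same match. A match is a description of letters, not a bound site.

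Clec4a1 and its neighbours formed a second run of 8 genes, Clec4a1, Clec4a3, Clec4a4, Clec4b1, Clec4a2, Clec4n, Clec4d and Clec4e, with 1 other coding gene among them. Of the 6 tested, 5 had log2 fold changes above 0 and Clec4a1 was the exception. It measured 8.58, 11.7 and 11.1 CPM in model tumors and 4.18, 8.68 and 4.15 CPM in treated tumors. The groups overlapped only through DMDD liposome replicate 2, which lay just above model replicate 1. Clec4a1 had a log2 fold change of -0.89 ± 0.33 (edgeR adjusted p = 0.629). Without DMDD liposome replicate 2 it was -1.34, and DESeq2 called it in that fit (adjusted p = 0.00438, background 0.892%) where edgeR did not. The fit leaves out the library through which the groups overlap, so the call is no support for a difference between the groups. Clec4a2, the ITIM receptor DCIR, stood at 0.01 ± 0.33 and Clec4a3 at 0.11 ± 0.21, and both changed sign under some settings. The sequences of the Clec4a genes are much alike, and the sources used here do not say how reads shared between them were counted.

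Of the 3 tested ITIM receptors, Siglece, which holds back neutrophil and macrophage activation, came after Clec12a, at 0.65 ± 0.45, and between 0.27 and 1.13 with 1 library left out. Its levels were 3.29, 5.99 and 2.17 CPM in model tumors and 8.78, 5.13 and 4.09 CPM in treated tumors, so that the groups overlapped. Siglec1, the sialoadhesin of tissue macrophages, measured 47.7, 54.3 and 20.2 CPM in model tumors and 54.8, 34.5 and 65.4 CPM in treated tumors. Model replicate 3 was the lowest library, and the log2 fold change of 0.34 ± 0.38 came to 0.00 without it. The macrophage and monocyte markers were also lowest in model replicate 3, at a summed 1824 CPM. Clec10a, a galactose-binding uptake receptor of macrophages and dendritic cells, measured 1.84, 4.12 and 1.84 CPM in model tumors and 5.31, 5.13 and 2.86 CPM in treated tumors. Its model replicate 2 lay inside the DMDD liposome range, and the log2 fold change of 0.76 ± 0.43 had an edgeR adjusted p of 0.708 and ran from 0.55 to 1.26 with 1 library left out.

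Clec14a and Clec1a are expressed mainly by endothelial cells. Clec14a, an adhesion protein of tumor vessels, measured 10.6, 5.28 and 3.41 CPM in model tumors and 11.2, 11.9 and 9.06 CPM in treated tumors. Clec1a measured 1.84, 1.03 and 1.18 CPM in model tumors and 2.83, 2.64 and 2.11 CPM in treated tumors. Model replicate 1 was the highest model library for both, and for Clec14a it lay inside the DMDD liposome range. The log2 fold changes were 0.74 ± 0.40 for Clec14a (edgeR adjusted p = 0.676) and 0.91 ± 0.36 for Clec1a (edgeR adjusted p = 0.635). Without model replicate 1, Clec14a stood at 1.30, with an adjusted p of 0.0906 in edgeR and of 0.00403 in DESeq2, in fits that called 0.851% and 6.31% of all genes. These fits leave out the model library inside the DMDD liposome range, so the DESeq2 call is no support for a difference between the groups. Over 13 endothelial markers the summed level was 376 CPM in model replicate 1, 201 and 224 CPM in model replicates 2 and 3, and 293 to 422 CPM in treated tumors. Of the 11 tested markers 10 were above 0, and the part of vessel content in the values of Clec14a and Clec1a was not tested.

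The remaining tested C-type lectins had log2 fold changes near 0. Clec2d, the ligand by which cells restrain NK cells through Klrb1b, stood at 39.2 ± 2.20 CPM in model tumors and 37.2 ± 1.13 CPM in treated tumors, which gave -0.08 ± 0.10. Clec16a, a regulator of mitophagy that carries the name without being a classical lectin, stood at 0.02 ± 0.12, from 32.6 ± 3.97 to 33.2 ± 0.833 CPM. Clec11a, a secreted growth factor for bone and blood progenitors, stood at 0.16 ± 0.39 and turned to -0.24 without DMDD liposome replicate 2.

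The Cd209 genes, mouse relatives of the human receptor DC-SIGN of dendritic cells and macrophages, form an unbroken run with Clec4g. None of the 7 had enough reads to be tested in all 6 libraries. Their summed counts were 6, 107 and 65 in model tumors and 5, 11 and 7 in treated tumors. All 7 genes had their highest count in model replicate 2 or 3, and 5 of the 7 in model replicate 1 were at 0 counts, which at 3 counts allows a level of up to 0.230 CPM. Cd209a, with 4, 13 and 16 counts in model tumors and 2, 3 and 1 in treated tumors, was without overlap by 1 count. Cd209e had 0, 21 and 27 counts in model tumors and 0, 2 and 1 in treated tumors, and Cd209g had 2, 20 and 12 against 1, 1 and 2. Without model replicate 1, DESeq2 called Cd209e (adjusted p = 0.0111, background 6.31%), against an adjusted p of 0.406 on all 6 libraries. That omission removes the model library in which the gene is at 0, so the call is no support for a difference between the groups.

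**Figure D4:**
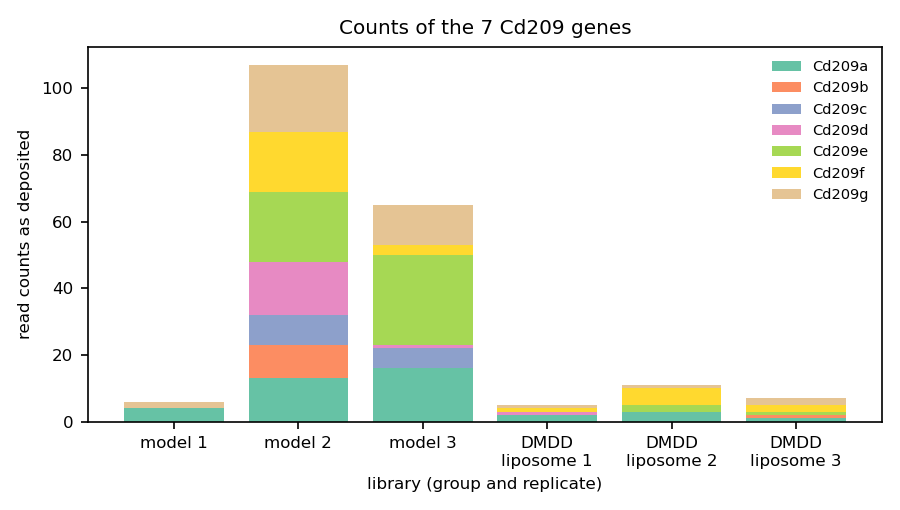
Deposited read counts of the 7 Cd209 genes, stacked in each library (group and replicate on the horizontal axis). Model replicates 2 and 3 hold 107 and 65 counts in all, and the other 4 libraries hold 5 to 11.

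The same 2 libraries held the most counts of Siglech, a receptor of plasmacytoid dendritic cells and some macrophages that pairs with Tyrobp, with 4, 36 and 20 counts in model tumors and 7, 8 and 4 in treated tumors. Clec4b1 had 17 counts in model replicate 2 and at most 2 elsewhere. Mast cell and basophil genes were highest in model replicates 2 and 3 as well (95.2 and 102 CPM summed over 9 genes), as were epithelial markers (6519 and 5945 CPM). The plasmacytoid dendritic cell list had its highest centred mean in model replicate 2, at 0.50 against -0.43 to 0.20 in the others (-0.27 in model replicate 3), with 3 of 5 tested genes above 0. Its low-level genes Ly6d and Ccr9 were highest in that library, at 5.35 and 1.22 CPM, while its summed level of 767 to 1162 CPM was nearly all Tcf4, Bst2 and Irf7, which other cells express too. The part of other cells in the Cd209 and Siglech counts was not tested, and reads that the Cd209 genes could share cannot be assigned with certainty.

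The other members below the count filter were 12 further C-type lectins, Siglecf, Siglecg and Lgals12. The highest of the 23 untested members were Siglech, Clec2i and Siglecf, at means of 0.885, 0.845 and 0.715 CPM over the 6 libraries, and the lowest tested ones were Lgals2, Clec9a and Lgals4, at 1.24, 1.61 and 1.72 CPM. Siglecf, a receptor of eosinophils and some macrophages, had 7, 15 and 6 counts in model tumors and 9, 7 and 18 in treated tumors. Of the 5 eosinophil genes in the table, Ear2 had 0, 17 and 1 counts in model tumors and 10, 6 and 20 in treated tumors, with its highest counts in the same 2 libraries as Siglecf. Ccr3 reached 17 counts in DMDD liposome replicate 2 and Ear1 had 9 counts in model replicate 2 only, while Ear6 and the granule gene Prg2 had at most 3 and 1 counts in any library. The part of eosinophils in the Siglecf counts was not tested. Clec12b, Clec18a and Clec2h each had counts in 1 library only. Lgals12, a galectin of fat cells, had 1, 2 and 0 counts in model tumors and 5, 11 and 1 in treated tumors. Its highest library, DMDD liposome replicate 2, was also the highest for each of the 6 fat cell genes, with a summed 90.8 CPM against 10.6 to 41.5 CPM in the others. The part of fat cells in these counts was not tested.

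Among the galectins, Lgals3 was the member whose groups did not overlap. It encodes the chimera galectin, with a tail that lets it cross-link glycans, and is made by macrophages and carcinoma cells. Lgals3 measured 287, 294 and 389 CPM in model tumors and 154, 269 and 235 CPM in treated tumors. Every DMDD liposome library lay below every model library, by a narrow gap between DMDD liposome replicate 2 and model replicate 1. Lgals3 had a log2 fold change of -0.56 ± 0.22 (0.677-fold, edgeR adjusted p = 0.629), and -0.36 without DMDD liposome replicate 1. The epithelial markers summed to 3590, 6519 and 5945 CPM in model tumors and 3465 to 4062 CPM in treated tumors. Of the macrophage and monocyte markers 13 of 15 were above 0. The part of either cell type in the level of Lgals3 was not tested.

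Among the prototype galectins, the value of Lgals7 rested on 1 library. Lgals7, the galectin of stratified epithelia such as skin, measured 32.0, 157 and 18.6 CPM in model tumors and 18.5, 21.7 and 15.1 CPM in treated tumors. Model replicate 2 alone was high, and model replicate 3 lay inside the DMDD liposome range. The log2 fold change of -1.91 ± 0.73 (edgeR adjusted p = 0.629) became -0.46 without model replicate 2. That library also held 591 counts of the epidermal keratin gene Krt1 and 1919 counts of Krt5, which had at most 2 counts elsewhere. Lgals1 measured 1963, 3086 and 2445 CPM in model tumors and 2241, 2670 and 2171 CPM in treated tumors, which gave -0.08 ± 0.19, and 0.09 without model replicate 2. Lgals2, found mainly in gut and some myeloid cells, stood at -0.33 ± 0.46, and at 0.11 without model replicate 1.

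Of the tandem-repeat galectins, which carry 2 different sugar-binding domains in 1 chain, Lgals9 had the smallest p. Lgals9 encodes a ligand of Havcr2 (TIM-3) that interferon induces, and measured 112, 101 and 92.1 CPM in model tumors and 136, 99.7 and 163 CPM in treated tumors. DMDD liposome replicate 2 lay inside the model range. Lgals9 had a log2 fold change of 0.39 ± 0.18 (edgeR adjusted p = 0.656), and 0.21 without DMDD liposome replicate 3. Lgals8, whose product marks damaged endosomes, stood at 0.00 ± 0.11 with 80.7 ± 3.50 CPM in model tumors and 80.9 ± 8.44 CPM in treated tumors. Lgals4, an intestinal galectin, stood at 0.54 ± 0.60, and ran from 0.11 without DMDD liposome replicate 2 to 1.14 without model replicate 1. With 9 counts in model replicate 2, it passed the count filter only with libraries of the group where it is high. The value of Lgals4 is therefore no support for a difference. Lgalsl, a galectin-related protein, stood at 0.17 ± 0.14, with 49.4 ± 5.33 CPM in model tumors and 55.4 ± 7.15 CPM in treated tumors.

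Lgals3bp, which encodes a secreted glycoprotein bound by galectins and not a galectin itself, measured 294, 293 and 288 CPM in model tumors and 285, 259 and 397 CPM in treated tumors. The 3 model libraries were nearly equal, and DMDD liposome replicate 3 was alone above them. It gave a log2 fold change of 0.11 ± 0.16, and of -0.10 without that library. DMDD liposome replicate 3 was the highest library for Lgals9, Lgals8, Lgals3bp, Siglec1, Clec7a and Clec12a. DMDD liposome replicate 2 was the highest for Clec4d, Clec4e, Clec5a, Clec4a2, Clec14a, Clec11a, Lgals4 and Lgalsl. DMDD liposome replicate 1 was the highest for Clec4n, Clec9a, Clec1a, Clec10a, Siglece and Clec4a3. The shares of all tested genes that were highest in each library were not counted, so these lists mark no library as particular for lectins. Irf7, a transcription factor that interferon induces, was highest in DMDD liposome replicate 3, with 212 CPM against 67.7 to 111 CPM in the other 5 libraries. Bst2, an interferon-induced membrane protein, had 591 CPM there against 313 to 434 CPM elsewhere. Runx2, of the same plasmacytoid dendritic cell list, was at its lowest there, with 45.55 CPM. The T and NK cell markers had a centred mean of 0.87 there, against -0.76 to 0.39 elsewhere. These are values of 1 library, and their part in the lectin values was not tested.

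**Figure D5:**
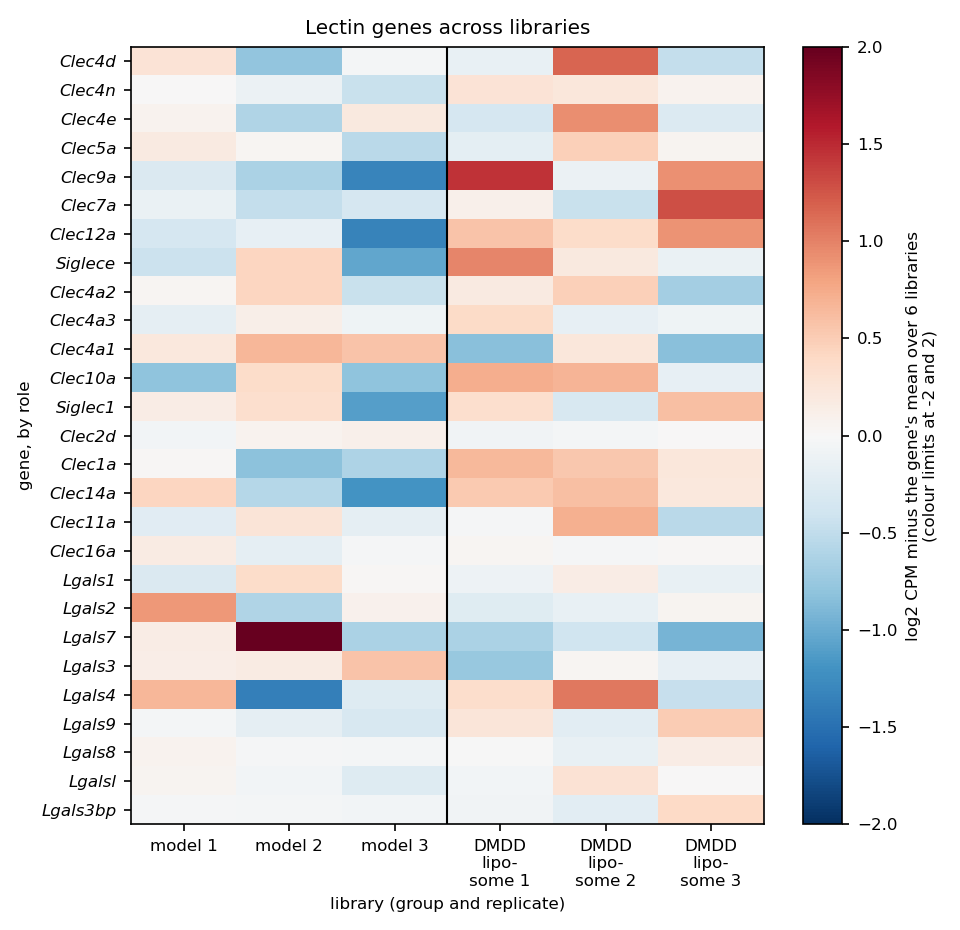
Log2 CPM of the 27 tested lectin genes in each library, each gene centred on its mean over the 6 libraries (rows by role, columns by group and replicate, colour limits at -2 and 2, beyond which Lgals7 in model replicate 2 lies at 2.45). Clec7a, Lgals9 and Lgals3bp are highest in DMDD liposome replicate 3, and Clec4d and Clec4e in DMDD liposome replicate 2.

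The upstream window of Lgals9 is shown for the core of the interferon-stimulated response element, searched as 2 copies of GAAA separated by any 2 bases, on either strand, and marked in capitals. It is the 250 bases before the RefSeq start, chr11:78984925-78985174, minus strand in build GRCm38.p6.
Lgals9: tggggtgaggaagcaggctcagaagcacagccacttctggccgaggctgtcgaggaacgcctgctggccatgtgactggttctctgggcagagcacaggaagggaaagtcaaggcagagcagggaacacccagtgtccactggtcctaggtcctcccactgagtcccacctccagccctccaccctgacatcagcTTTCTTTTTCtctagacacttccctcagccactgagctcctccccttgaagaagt
The match lies on the opposite strand and begins 55 bases before the start. The motif was in 3 of the 46 member promoters (Lgals9, Clec2d and Clec4b1), 6.52%, against 2.98% of all promoters of this length, and a match to it can overlap a match to GAGGAA.

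Downstream of the activating receptors, 11 of 18 genes of ITAM adaptors, kinases and the CARD9 complex had log2 fold changes above 0 (median 0.16), with 0 called and 3 at an unadjusted p under 0.05. These shares, 61.1% and 16.7%, and those of the lists that follow stand beside 51.2% and 7.65% of all tested genes. Syk, the kinase that ITAMs recruit, measured 32.3, 25.7 and 29.0 CPM in model tumors and 49.7, 43.3 and 40.9 CPM in treated tumors. Its groups did not overlap, and the log2 fold change of 0.62 ± 0.14 had an edgeR adjusted p of 0.626. Nfatc1, a transcription factor of calcium signalling, stood at 0.42 ± 0.16 and Prkcd, the kinase that links Syk to Card9, at 0.41 ± 0.17. The adaptor Fcer1g stood at 0.29 ± 0.13. Of the 7 phosphatases and kinases on the ITIM side 4 were above 0 (median 0.10), with 0 called and 1, the adaptor Dok2 at 0.43 ± 0.13, at an unadjusted p under 0.05.

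The glycan enzymes that make lectin ligands gave no called gene either. Of 21 tested genes of sialic acid synthesis, transfer and removal 16 were above 0 (median 0.10), with 2 higher and 2 lower at an unadjusted p under 0.05. Neu1, the lysosomal sialidase, stood at 0.37 ± 0.11, from 30.8 ± 1.98 CPM in model tumors to 39.8 ± 2.53 CPM in treated tumors. The sialyltransferase genes St3gal4 and St3gal2 stood at -0.89 ± 0.29 and -0.26 ± 0.09, and St3gal4 measured 120, 183 and 294 CPM in model tumors against 104 to 113 CPM in treated tumors. Of 17 genes of N-glycan branching, lactosamine extension and O-glycan cores 10 were above 0 (median 0.07), again with 2 higher and 2 lower at an unadjusted p under 0.05. Mgat3, which adds the bisecting N-acetylglucosamine, measured 9.27, 5.74 and 3.74 CPM in model tumors and 15.7, 20.2 and 10.2 CPM in treated tumors, with a log2 fold change of 1.30 ± 0.38 (edgeR adjusted p = 0.626). B3gnt2, which extends the lactosamine chains that galectins bind, stood at -1.06 ± 0.33, from 3.96 ± 1.11 to 1.90 ± 0.247 CPM.

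Among 16 surface partners of galectins, 10 were above 0 (median 0.14), with 0 called and 1 at an unadjusted p under 0.05, Ptprc, the leukocyte phosphatase CD45, at 0.26 ± 0.11. Cd44, a hyaluronan receptor, stood at -0.65 ± 0.29 and Itgam, a myeloid integrin subunit, at 0.66 ± 0.35. Of 24 tested genes of other lectin-domain surface receptors, such as the mannose receptor and the NK receptors, 19 were above 0 (median 0.38), with 0 called and 1 (4.17%) at an unadjusted p under 0.05. Klrc1, an inhibitory receptor of NK and T cells, measured 1.30, 1.22 and 2.03 CPM in model tumors and 6.65, 2.26 and 4.22 CPM in treated tumors, and its log2 fold change of 1.52 ± 0.46 had an edgeR adjusted p of 0.626. Klrd1, the partner of Klrc1, stood at 1.01 ± 0.44 and Olr1, a scavenger receptor for oxidized lipoprotein, at 1.33 ± 0.58 with means of 0.381 and 0.954 CPM. Olr1 had 9, 4 and 3 counts in model tumors and 10, 15 and 15 in treated tumors. It passed the count filter only through the group where it is high. Its value, among the 19 above 0, is therefore no support for a difference. The T and NK cell markers, 7 of 9 above 0, had centred means of -0.24, -0.39 and 0.13 in model tumors and 0.39, -0.76 and 0.87 in treated tumors, and their part in the values of Klrc1 and Klrd1 was not tested.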

How the data were processed

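Per the labels' protocols, tumor RNA was isolated with Trizol and sequenced from NEBNext Ultra libraries. The labels' descriptions speak of rats, while organism and strain are those of a mouse and all 50 members matched a mouse RefSeq symbol (GRCm38.p6). Per the file headers, the deposited table holds read counts per gene. It also holds, per the file headers, FPKM, a normalized read signal that came out as counts divided by 1 factor per library, log2 fold changes of model over DMDD liposome, and p-values. The submitters' processing notes name DESeq2 and build mm9. The sources used here name no aligner, counter, annotation or strand setting, so reads shared by near-identical or overlapping genes are uncertain.

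edgeR 4.0.16 (R 4.3.3) was run on the deposited counts (filterByExpr with a minimum count of 10 and a minimum total of 15, TMM, two-sided quasi-likelihood test, Benjamini-Hochberg adjustment over 12891 genes, threshold 0.05). Fold changes are DMDD liposome over model, their SE comes from the F statistic, and CPM are TMM-scaled and given as mean ± SD over 3 libraries. Genes described singly were the members with a mean of at least 1 CPM, those past the threshold in any fit and those next to the count filter, and the 12 smallest p, the 3 highest FPKM per family and every tested member without overlap were given per library. From each pathway list up to 3 genes with the smallest p were named. Fcer1g, Xcr1, Irf7, Bst2, Runx2, Lyz2, Krt1, Krt5, Prg2, Ear1, Ear2, Ear6, Ccr3, Ly6d, Ccr9, Tcf4, Cd24a, Mmp9, S100a8, S100a9, Csf3r, Cxcr2, Retnlg, Ly6g, Mmp8, Pf4, Itga2b, Gp9, Cd209a, Cd209g, Clec4b1, Lgals12, Clec12b, Clec1b, Clec18a and Clec2h were added after their values were seen. Members and lists were chosen with earlier results of these data known. Neighbours share a run when at most 1 other coding gene lies between them. Alternatives were DESeq2 1.42.0 size factors and Wald test, no count filter, a replicate block, limma 3.58.1 voom with quality weights, a threshold of 0.1 and leaving out each library; DESeq2 without each library was added after seeing the data. The scripts were tested on simulated data.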

Additional observations from a re-analysis of the deposited data

How the results depend on the processing

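The count of called members stayed at 0 in every edgeR fit, with each of the 6 libraries left out, with the replicate block, in limma-voom, at an adjusted p under 0.1 and in DESeq2 on all libraries. In DESeq2 fits that left out 1 library it was 2 without model replicate 1 (Clec14a, and Cd209e, which is at 0 in the library left out), 1 without DMDD liposome replicate 2 (Clec4a1) and 0 in the other 4. For each called gene the groups overlapped through the library left out, so these calls are no support for a difference between the groups. The count over all genes was 0 in edgeR, 59 in DESeq2, and 0 to 112 in edgeR with 1 library left out. DESeq2 called 867, 30 and 18 genes without model replicates 1, 2 and 3, and 20, 128 and 87 without DMDD liposome replicates 1, 2 and 3. The median log2 fold change of 0.21 over tested members went from 0.043 to 0.24 in edgeR with 1 library left out. In DESeq2, which takes in further members, it was 0.070 without model replicate 3, and 0.0016, -0.039 and 0.065 without DMDD liposome replicates 1, 2 and 3. The C-type lectin median of 0.34 was 0.089 with no count filter and 0.097 in DESeq2, which take in all 35 genes, and 0.020 (without DMDD liposome replicate 2) to 0.43 with 1 library left out. The galectin median of 0.00 went from -0.077 to 0.11 with 1 library left out. The Siglec median of 0.49 went from 0.035 (4 genes, without model replicate 3) to 0.60. Above 0 were 21 of 27 members, 20 of 27 with DESeq2 size factors, 19 of 27 with the replicate block, 18 of 27 in limma-voom, 27 of 50 with no count filter, 28 of 50 in DESeq2 and, with 1 library left out, from 19 of 34 (without DMDD liposome replicate 2) to 24 of 33 (without model replicate 1). The shares over all 50 and the 19 of 34 are near the 51.2% of all tested genes.

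Of 27 single members 10 changed sign somewhere. With 1 library left out, the log2 fold changes ran over these ranges: Clec4d -0.18 to 0.77, Clec4e -0.24 to 0.52, Lgals2 -0.63 to 0.11, Lgals3bp -0.10 to 0.22, Clec4a3 -0.084 to 0.20, Lgals1 -0.23 to 0.092, Clec11a -0.24 to 0.41, Clec16a -0.063 to 0.12, Clec4a2 -0.25 to 0.28, Lgals8 -0.077 to 0.067. Without the count filter Clec4a2 was at -0.0049 and Lgals8 at -0.012, and with the replicate block they were at -0.017 and -0.00029. Lgals8 was at -0.0020 with DESeq2 size factors and -0.0039 in the DESeq2 Wald test. In limma-voom Clec4a2 was at -0.067, Clec11a at -0.063 and Clec4e at -0.014. Each value of changed sign is smaller in size than the SE of that gene's reported value, while the other ends of some ranges are larger than it. The cause of the sign changes was not tested. The other 17 of 27 members kept their sign in these alternatives and in the added DESeq2 fits. Same-numbered libraries of the groups had correlations of deviations of 0.09, 0.11 and 0.12, and each library correlated best with its own number, but not every correlation passed 0.1 and the labels do not say that numbers mark pairs; the replicate block called 0 genes and 0 members and gave a median over tested members of 0.21. Depth limits the 23 members below the filter, where 3 counts are 0.193 to 0.230 CPM.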
